A study of Homo sapiens with 3 samples.

Results

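The protein-coding zinc finger genes of chromosome 19 whose symbol is ZNF followed by a number were examined for peaks of VCP and of its Flag tag. Chromosome 19 carries 246 such genes among its 1410 protein-coding genes and among the 19866 protein-coding genes placed on the chromosomes of GRCh38.p14, the RefSeq release of the hg38 build. The rule that picks them uses symbol and position and no measured value, but the set was proposed with earlier results of these data known. Of the 246 genes, 83 lay on 19p and 163 on 19q, and 238 of them fell into 10 clusters, defined as runs of at least 3 genes with gaps of at most 1 Mb. The cells were HCT116, a human colorectal cancer line that overexpressed Flag-tagged VCP, per the series' design text. Fixed chromatin was cut with micrococcal nuclease and precipitated with an antibody to VCP (Abcam) or with an antibody to Flag (CST). An input sample without antibody was made alongside and was not used here. Each antibody had 1 library, so nothing could be set against a spread between replicates and no test between conditions was possible. The VCP antibody may recover the endogenous as well as the tagged protein.

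Most zinc finger proteins of chromosome 19 combine an array of DNA-binding zinc fingers with a repressor domain named KRAB, and arose by tandem duplication. KRAB proteins recruit the corepressor TRIM28 and the histone methyltransferase SETDB1, many of them to transposable elements. In many cell types the genes themselves carry heterochromatin marks over the 3′ exon that encodes the fingers, while their promoters remain open. VCP, also called p97, is an ATPase that unfolds ubiquitin-tagged proteins and pulls them out of complexes, chromatin included. Where VCP or its tag is found along these genes, at the promoter or at the 3′ end, is the question asked here.

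Promoter sequences of genes chosen by the peaks at their start are shown first. ZNF837 and ZNF564 had overlapping peaks in both lists. Among members, ZNF562 and ZNF549 had the highest -log10 q of the VCP list at the outer 5′ end of the gene. At that end ZNF548 and ZNF808 had the highest of the Flag list. Of these peaks, those at ZNF562, ZNF548 and ZNF808 had a q of at most 0.05, and those at ZNF837, ZNF564 and ZNF549 did not. ZNF302 equalled ZNF548 in -log10 q (3.90) and is not shown. Its Flag summit lay 111 bp from its listed start but inside the outer end. Each line gives the 250 bases before the start listed by RefSeq (GRCh38.p14), 5′ to 3′ on the strand of the gene. Capitals mark letters that match one of the 6 motifs searched and described further on, on either strand.
ZNF837 (chr19:58381031-58381280, minus strand): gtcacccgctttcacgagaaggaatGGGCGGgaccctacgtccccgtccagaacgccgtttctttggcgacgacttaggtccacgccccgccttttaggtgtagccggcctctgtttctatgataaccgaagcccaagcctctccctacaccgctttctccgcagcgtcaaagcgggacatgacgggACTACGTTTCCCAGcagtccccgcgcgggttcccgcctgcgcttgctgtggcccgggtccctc
ZNF564 (chr19:12551483-12551732, minus strand): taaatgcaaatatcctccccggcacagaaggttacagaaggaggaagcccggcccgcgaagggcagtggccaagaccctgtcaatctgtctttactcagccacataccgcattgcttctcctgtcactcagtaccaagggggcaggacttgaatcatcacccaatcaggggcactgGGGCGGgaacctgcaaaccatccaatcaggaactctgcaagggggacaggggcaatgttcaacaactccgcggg
ZNF562 (chr19:9675101-9675350, minus strand): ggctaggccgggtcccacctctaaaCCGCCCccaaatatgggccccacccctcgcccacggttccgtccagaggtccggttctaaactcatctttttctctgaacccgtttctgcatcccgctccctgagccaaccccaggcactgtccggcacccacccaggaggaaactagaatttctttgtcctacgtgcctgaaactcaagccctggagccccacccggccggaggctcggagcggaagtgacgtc
ZNF549 (chr19:57527106-57527355, plus strand): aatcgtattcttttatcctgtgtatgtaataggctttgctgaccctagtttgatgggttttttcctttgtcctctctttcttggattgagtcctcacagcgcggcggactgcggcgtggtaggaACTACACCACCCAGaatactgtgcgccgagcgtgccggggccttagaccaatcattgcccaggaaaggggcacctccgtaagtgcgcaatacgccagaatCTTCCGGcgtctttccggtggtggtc
ZNF548 (chr19:57389604-57389853, plus strand): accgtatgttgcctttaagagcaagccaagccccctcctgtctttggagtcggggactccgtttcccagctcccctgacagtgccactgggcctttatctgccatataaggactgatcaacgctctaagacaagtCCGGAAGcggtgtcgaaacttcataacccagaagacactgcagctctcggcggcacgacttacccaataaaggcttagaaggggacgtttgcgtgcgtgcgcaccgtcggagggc
ZNF808 (chr19:52527418-52527667, plus strand): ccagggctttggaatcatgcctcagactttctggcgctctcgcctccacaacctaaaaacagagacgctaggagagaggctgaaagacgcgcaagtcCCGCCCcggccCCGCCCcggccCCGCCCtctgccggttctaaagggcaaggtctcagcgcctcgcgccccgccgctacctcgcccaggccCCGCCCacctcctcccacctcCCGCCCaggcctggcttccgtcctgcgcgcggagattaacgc

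The VCP list marked few of these genes. A summit, the point of highest signal within a peak, lay within 1 kb of an end of 6 of the 246 genes (2.44%, exact 95% interval 0.900 to 5.23), against 2.34% of all protein-coding genes and 3.01% of the 1164 other protein-coding genes of chromosome 19 (2.10 to 4.16). A summit in the gene body, more than 1 kb from either end, was found in 8 of the 246 (3.25%, 1.41 to 6.31), against 2.35% of all protein-coding genes and 1.12% of the other chromosome 19 genes (0.596 to 1.90). Either kind of summit was present at 14 of the 246 (5.69%, 3.15 to 9.36), against 4.63% of all protein-coding genes. Each share of the zinc finger genes was thus near its background over all genes. Whether a gene was expressed in these cells was not measured here, and silent genes count in every share. No set test was run on any of these shares, and all intervals given cover counting error only. Beyond the outer window of 1 kb no VCP summit lay within 3 kb outside a member.

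The 6 genes with a VCP summit at an end were ZNF562, ZNF564, ZNF738, ZNF296, ZNF549 and ZNF837, each encoding a zinc finger protein. ZNF562 had the strongest of these peaks, at chr19:9674897-9675367. Its summit lay 123 bp before the start, where 15 reads (95% Poisson interval 8.40 to 24.7) gave a deposited fold enrichment over local background of 4.40 and a -log10 q of 1.93. The other 13 VCP peaks at members had a q above 0.05. At ZNF549 the summit lay 522 bp before the start, on 11 reads (5.49 to 19.7), for a fold enrichment of 4.10 and a -log10 q of 0.967. ZNF738 had 10 reads (4.80 to 18.4) at a summit 136 bp from an end, with a fold enrichment of 4.01 and a -log10 q of 0.697. At ZNF296, whose mouse counterpart is known from pluripotent cells, the summit lay 72 bp before the start, with a fold enrichment of 3.36 and 11 reads. That summit was also within 1 kb of an end of GEMIN7, a gene of the SMN complex that assembles spliceosomal RNPs. These peaks thus rested on 10 to 15 reads each.

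The 8 genes with a VCP summit in the body were ZNF44, ZNF333, ZNF257, ZNF536, ZNF566, ZNF568, ZNF780B and ZNF606. ZNF606 had the highest -log10 q of them (1.13), with a fold enrichment of 3.86 and 14 reads (7.65 to 23.5). ZNF257 followed with 13 reads and a fold enrichment of 3.41. ZNF536, a repressor gene known from neuronal differentiation, and ZNF333 had the same fold enrichment of 3.28 on 8 reads (3.45 to 15.8). Fold enrichments were 3.55 at ZNF566, 2.98 at ZNF44, 2.95 at ZNF568 and 2.87 at ZNF780B. ZNF568 has a mouse counterpart that represses a placental promoter of Igf2. A body summit in this list reached a q of at most 0.05 at 0 of the 8 genes, and 0 of the 8 peaks overlapped a Flag peak.

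Flag, whose list was the longer at 5719 peaks, marked an end of 22 of the 246 genes (8.94%, 5.69 to 13.2), against 11.7% of all protein-coding genes and 13.6% of the other chromosome 19 genes (11.7 to 15.7). ZNF-number genes on other chromosomes, the set most like these genes, had a Flag summit at an end in 34 of 263 (12.9%, 9.12 to 17.6) and a VCP summit in 6 of 263 (2.28%, 0.842 to 4.90). Gene bodies held a Flag summit in 13 of the 246 genes (5.28%, 2.84 to 8.87), against 6.75% of all protein-coding genes and 6.62% of the other chromosome 19 genes (5.26 to 8.20). Either kind was present at 34 of the 246 (13.8%, 9.77 to 18.8), against 17.5% of all protein-coding genes. The intervals of members and of other chromosome 19 genes overlapped in each of these comparisons over the whole chromosome. The 34 Flag peaks at members touched 34 genes, with ZNF766 and ZNF480 sharing a peak and ZNF383 holding a pair.

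**Figure D1:**
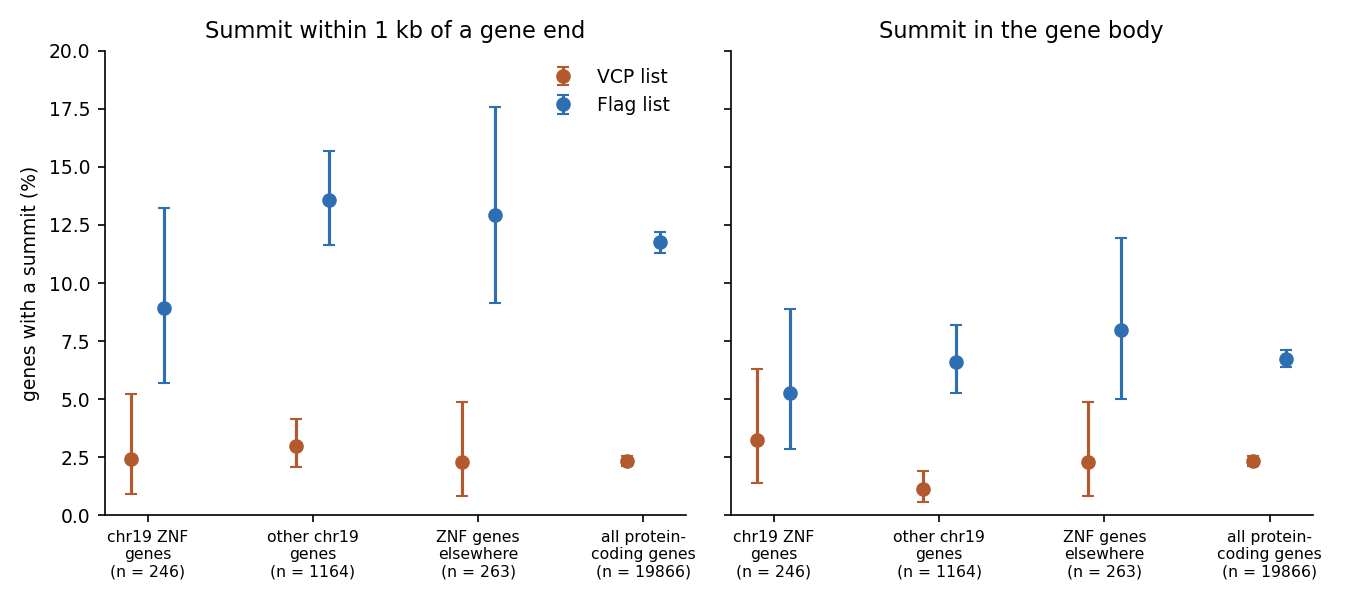
Percent of genes with a summit within 1 kb of an end (left) or in the body (right) in the VCP and Flag lists, for the zinc finger genes of chromosome 19, other chromosome 19 genes, ZNF-number genes elsewhere and all protein-coding genes. Points are shares and bars are exact 95% binomial intervals. The Flag share at ends was 8.94% for the zinc finger genes and 13.6% for the other chromosome 19 genes, and the VCP shares were 2.44% and 3.01%.

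ZNF548 and ZNF808 had the strongest Flag peaks at an outer end. The ZNF548 peak (chr19:57389800-57390101) had its summit 92 bp after the start, 14 reads (7.65 to 23.5), a -log10 q of 3.90 and a fold enrichment of 5.27. ZNF808, which represses MER11 transposable elements in the developing human pancreas, had its summit 95 bp after the start (chr19:52527695-52527879), with 15 reads (8.40 to 24.7), a -log10 q of 3.45 and a fold enrichment of 4.73. ZNF302 equalled ZNF548 in fold enrichment (5.27), -log10 q (3.90) and reads (14). Its summit counted as body, 1.81 kb inside the outer end, and lay 111 bp from the start that RefSeq lists for the gene. It was also within 1 kb of an end of SCGB2B2.

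A q of at most 0.05 was also found for the Flag peaks at ZNF566 (fold enrichment 3.76, -log10 q 1.73, 13 reads), ZNF544 (4.02, 1.70, 11 reads) and ZNF497 (3.44, 1.44, 14 reads). The ZNF544 summit lay in the body, 28.4 kb from the start and within 1 kb of an end of the non-coding gene ZNF8-DT. Just short of that threshold was ZNF100, with 10 reads, a -log10 q of 1.29 and a fold enrichment of 3.86. ZNF416 (fold enrichment 3.55, -log10 q 1.21) and ZNF564 (3.21, 1.05) completed the 9 members with the highest values, and 7 members tied next at 0.813. ZNF91, which represses SVA retrotransposons in human cells, was among these 7, with its summit 231 bp after the start, a fold enrichment of 3.22 and 11 reads (5.49 to 19.7).

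At the median, Flag peaks at members had a lower fold enrichment than those at other genes of the chromosome. The 34 Flag peaks at members had a median fold enrichment of 3.18 (quartiles 2.75 and 3.51), against 3.51 (3.13 and 4.21) for the 215 peaks at other chromosome 19 genes only and 3.49 for all 5692 Flag peaks on the chromosomes. Of the 34, 6 reached a q of at most 0.05 (17.6%, 6.76 to 34.5), and of the 215, 94 did (43.7%, 37.0 to 50.6). The median peak held 10 reads at members and 11 at the other genes. In the VCP list the median fold enrichment was 3.39 for the 14 peaks at members, against 3.35 for the 40 at other chromosome 19 genes and 3.28 for all 1803 peaks. These are descriptions of peaks in 1 library each. The zinc finger genes are paralogs with long stretches of similar sequence, and how reads that align to several copies were handled is not stated in the sources at hand. Reads lost or shifted between copies were not tested, and each value at a member is uncertain to that extent.

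The position of the summits was read against the strand, which RefSeq promoter records gave for 216 of the 246 genes. In the VCP list 5 of the 216 had a summit within 1 kb of the start (2.31%, 0.756 to 5.32), against 2.17% of all protein-coding genes with a strand. At the 3′ end the count was 0 of 216, which allows a share of up to 1.39%, against 0.259% of all genes and 7 of 969 other chromosome 19 genes (0.722%). In the Flag list 19 of the 216 had a summit at the start (8.80%, 5.38 to 13.4), against 11.7% of all genes and 118 of 969 other chromosome 19 genes (12.2%, 10.2 to 14.4). At the 3′ end the Flag count was 2 of 216 (0.926%, 0.112 to 3.30), against 0.915% of all genes and 23 of 969 other chromosome 19 genes (2.37%, 1.51 to 3.54). In both lists more of these genes had a summit at the start than at the 3′ end, as did all genes.

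The 2 genes with a Flag summit at the 3′ end were ZNF766 and ZNF865. The ZNF766 summit lay 464 bp past its 3′ end and 659 bp from an end of its neighbour ZNF480 (fold enrichment 2.69, 9 reads). At ZNF865 the summit lay 584 bp past the 3′ end (fold enrichment 3.16, 8 reads). Neither summit was inside the gene, and in both lists 0 of the 216 genes had a summit within the last 1 kb of the transcribed span. Exon positions were not available here, so the 3′ exon that encodes the fingers could not be told apart from the body. The last 1 kb need not cover that exon, and summits further inside were counted as body. These 3 distances, 464, 584 and 659 bp, are also among the longest inside the window. The nearest Flag summits outside it lay 1.33 kb from an end of ZNF358 (fold enrichment 4.28) and 1.65 kb from one of ZNF530 (3.41).

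Around the starts the Flag summits lay mostly inside the gene. Of the 19, 17 were after the start and 2 before it, with a median of 129 bp after it, and 16 were within 300 bp. Of the 5 VCP summits at a start, 3 were before and 2 after it, at a median of 72 bp before it. In the body, 3 of the 11 Flag summits with a known strand lay within 1 kb of a listed start inside the gene: ZNF302, ZNF558 (193 bp) and ZNF567 (266 bp). That is 27.3%, against 21 of 76 (27.6%) for other chromosome 19 genes. The ZNF558 summit was also within 1 kb of an end of MBD3L1, and that of ZNF567 within 1 kb of an end of the non-coding ZNF567-DT. Counting any listed start, a choice made after the data were seen, 22 of the 216 members had a Flag summit at a start (10.2%, 6.49 to 15.0). The same held for 136 of 969 other chromosome 19 genes (14.0%, 11.9 to 16.4) and 12.6% of all protein-coding genes with a strand. For ZNF-number genes elsewhere the share was 13.6% (9.27 to 18.9). The 8 VCP body summits lay at 40.8% to 93.5% of the gene length from the start, and 0 of them was within 1 kb of a listed start. Their median was 66.0% of the gene length, against 37.4% for the 10 VCP body summits at other chromosome 19 genes, of which 1 was within 1 kb of a listed start. At the members, the VCP body summit nearest to a 3′ end was that of ZNF333, 2.88 kb from it.

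**Figure D2:**
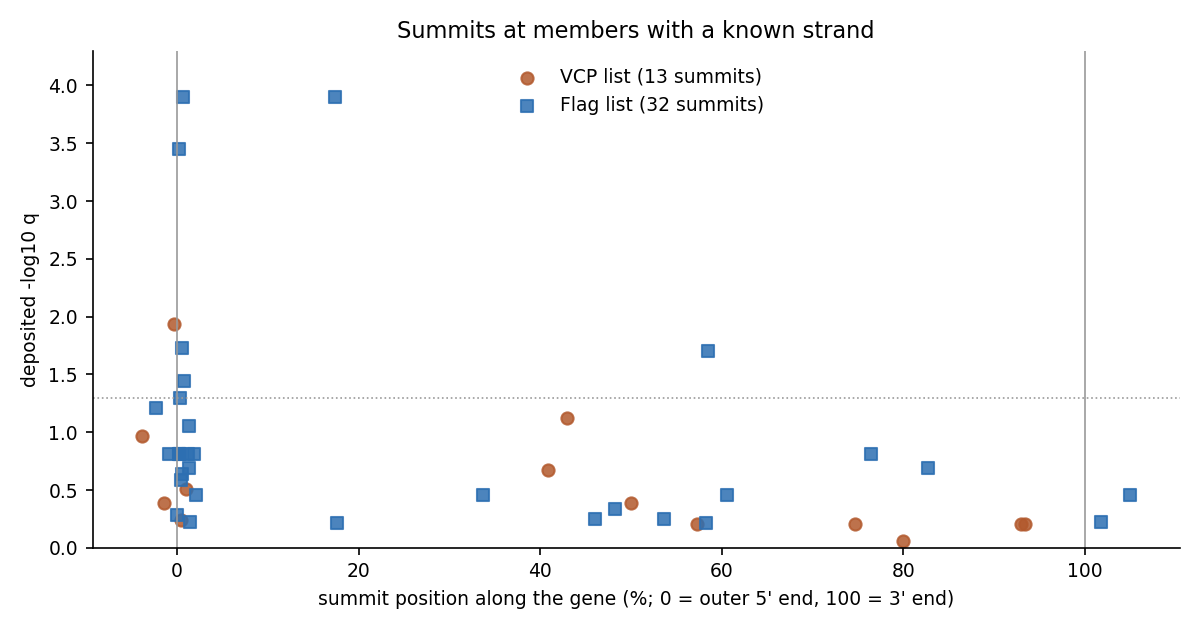
Deposited -log10 q of each summit at a member with a known strand against its position along the gene, from the outer 5′ end (0) to the 3′ end (100), with VCP as circles and Flag as squares. Negative positions lie before the start, and the dotted line marks a q of 0.05 (-log10 q of 1.3). In the VCP list 5 genes had a summit at the start and 8 in the body, and in the Flag list 19 had one at the start and 2, ZNF766 and ZNF865, beyond 100.

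Peaks at both antibodies were shared at 2 genes. ZNF837 had overlapping peaks with summits 43 bp apart, at 127 bp after the start in the VCP list (fold enrichment 3.65, 10 reads) and 170 bp in the Flag list (3.28, 9 reads). ZNF564 had overlapping peaks with summits 223 bp apart, at 115 bp after the start in the VCP list (fold enrichment 2.94, 12 reads) and 338 bp in the Flag list (3.21, 13 reads). An end of the non-coding LINC02926 was within 1 kb of both ZNF564 summits. ZNF566 was also in both lists, but at different places, with a VCP summit in the body 22.0 kb away from its Flag summit at the start. The 3 genes were 21.4% of the 14 members with a VCP summit and 8.82% of the 34 with a Flag summit. Of the peaks themselves, 2 of 14 VCP peaks at members overlapped a Flag peak (14.3%, 1.78 to 42.8), against 12 of 40 at other chromosome 19 genes (30.0%, 16.6 to 46.5) and 196 of 1803 in the whole list (10.9%). At gene ends alone, 2 of 6 VCP peaks at members overlapped a Flag peak (33.3%, 4.33 to 77.7). Peaks at ends of other chromosome 19 genes did so in 10 of 28 (35.7%, 18.6 to 55.9), and all VCP peaks at gene ends in 32.4%. In all, 201 of the 246 genes had a summit in neither list. Of all protein-coding genes 4.63% had a VCP summit and 17.5% a Flag summit, so that most genes of any kind had none.

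Along the short arm, 83 of the genes made up 4 clusters and the isolated ZNF333. VCP summits were found at 6 of them and Flag summits at 8, against 4.63% and 17.5% of all protein-coding genes. The cluster from ZNF554 to ZNF77 (chr19:2819868-2944971) held 5 members, and ZNF57, with a body summit of the Flag list (fold enrichment 2.63), was the marked one. From ZNF557 to ZNF846 (chr19:7069703-9786160, 15 members), ZNF562 was marked by VCP, and ZNF414 (fold enrichment 2.96 at the start) and ZNF558 (2.75) by Flag. From ZNF653 to ZNF791 (chr19:11483429-12633834, 25 members), ZNF564 was marked by both and ZNF44 by VCP. The cluster next to the centromere, from ZNF101 to ZNF254 (chr19:19668153-24129968, 37 members), had ZNF738 and ZNF257 in the VCP list. Its Flag genes were ZNF100, ZNF91, ZNF14 and ZNF99. Members of 19p had a VCP summit at an end in 3 of 83 (3.61%, 0.752 to 10.2) and a Flag summit in 4 of 83 (4.82%, 1.33 to 11.88). Other 19p genes had 20 of 524 (3.82%, 2.35 to 5.83) and 78 of 524 (14.9%, 11.95 to 18.2), so that the Flag intervals of the short arm did not overlap.

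Of the 163 long-arm members, 8 had a VCP summit and 26 a Flag summit, against 4.63% and 17.5% of all protein-coding genes. In the cluster from ZNF302 to ZNF792 (chr19:34675979-34964229, 5 members) ZNF302 was the marked gene. From ZNF565 to ZNF573 (chr19:36182060-37779586, 26 members) 6 members had a Flag summit (23.1%, against 17.5% of all genes). They were ZNF566, ZNF383 and ZNF527 at the start and ZNF567, ZNF345, ZNF793 and again ZNF383 in the body. ZNF566 and ZNF568 had a VCP summit in the body (7.69% with any VCP summit, against 4.63% of all genes). ZNF780B was the marked gene of the 3 from ZNF546 to ZNF780A (chr19:39997060-40090943). From ZNF575 to ZNF296 (chr19:43530835-45076478, 24 members) ZNF45 was marked by Flag, with a fold enrichment of 3.51 at 200 bp before the start, and ZNF296 by VCP. The cluster from ZNF175 to ZNF331 (chr19:51571283-53580269, 39 members) had 0 genes with a VCP summit, which allows a share of up to 7.69%, against 4.63% of all genes, and 8 with a Flag summit (20.5%), against 17.5% of all genes. Of these, ZNF808, ZNF616, ZNF83, ZNF816, ZNF766 and ZNF480 were marked at an end and ZNF600 and ZNF415 in the body.

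The last cluster before the 19q telomere, from ZNF628 to ZNF446 (chr19:55476617-58489533), was the largest, with 59 members. It had 9 Flag genes (15.3%, against 17.5% of all genes). They were ZNF548, ZNF416, ZNF134, ZNF551, ZNF497, ZNF837 and ZNF865 at an end and ZNF544 and ZNF667 in the body. ZNF549, ZNF837 and ZNF606 were in the VCP list (5.08%, against 4.63% of all genes). A Flag summit lay at an end of 7 of the 59 members (11.9%, 4.91 to 22.9), near the 11.7% of all protein-coding genes. Of 45 other protein-coding genes within the same span, 1 had such a summit (2.22%). The same shares were 15.4% of members and 12.5% of 16 other genes from ZNF175 to ZNF331, 4.17% of members and 14.3% of 28 other genes from ZNF575 to ZNF296, and 6.67% of members and 9.26% of 54 other genes from ZNF557 to ZNF846. The remaining clusters held at most 4 other genes each. Over 19q the members had a Flag summit at an end in 18 of 163 (11.0%, 6.68 to 16.9), against 80 of 640 other 19q genes (12.5%, 10.0 to 15.3). For VCP these counts were 3 of 163 (1.84%, 0.381 to 5.28), against 15 of 640 (2.34%, 1.32 to 3.84). The difference between the arms was not tested. Among the 8 isolated members, ZNF507 had a Flag summit 140 bp after its start (fold enrichment 3.51), and ZNF333 and ZNF536 had their VCP summits in the body.

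**Figure D3:**
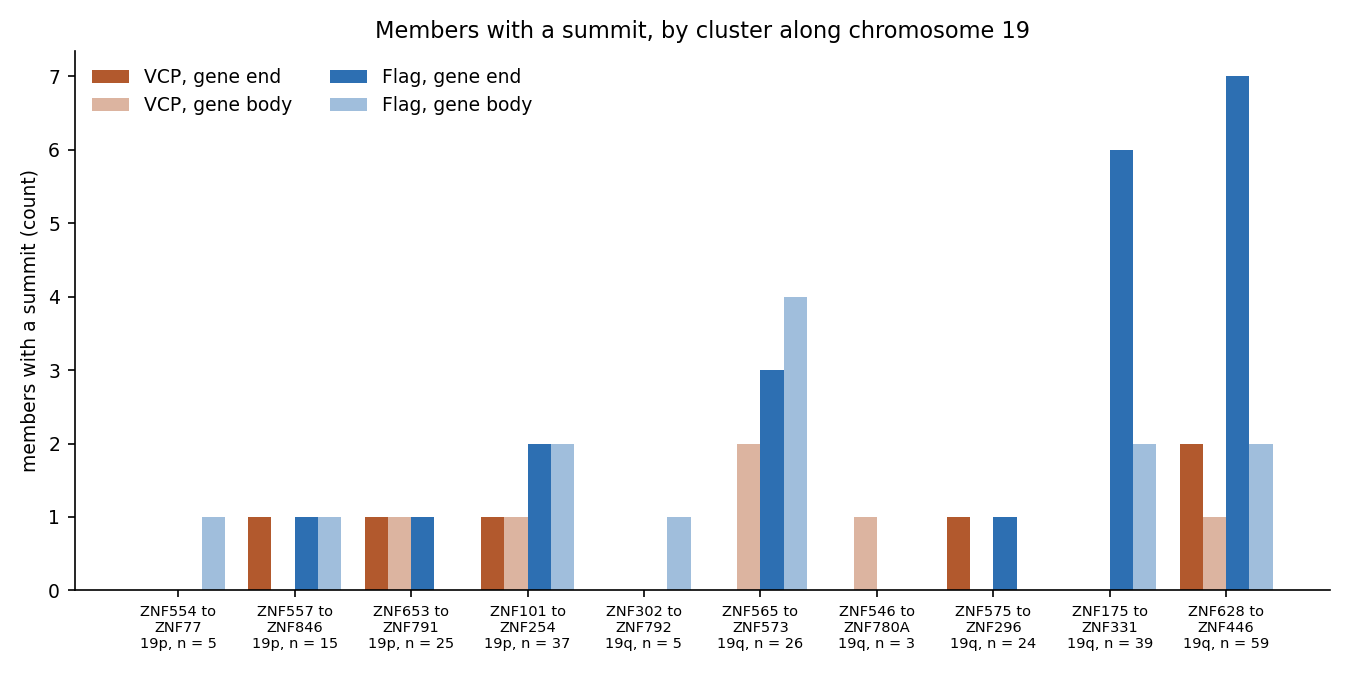
Number of members with a summit in each of the 10 clusters, in order along the chromosome, by list and by place (gene end or gene body). Labels give the first and last member, the arm and the number of members (n). The clusters from ZNF175 to ZNF331 and from ZNF628 to ZNF446 had 6 and 7 members with a Flag summit at an end. That is 15.4% and 11.9% of their members, against 11.7% of all protein-coding genes.

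Density took the length of the genes into account, since members had a median length of 23.2 kb, against 12.7 kb for other chromosome 19 genes. Over the span of each gene with 1 kb on both sides, members held 14 VCP summits in 7.49 Mb, or 1.87 per Mb (1.02 to 3.14), against 42 in 26.3 Mb, or 1.59 per Mb (1.15 to 2.16), for other chromosome 19 genes. That is a ratio of 1.17 (exact 95% interval 0.592 to 2.19). For Flag the members held 34 summits, or 4.54 per Mb (3.15 to 6.35), against 220, or 8.35 per Mb (7.28 to 9.53). The ratio was 0.544 (0.367 to 0.783), and it was 0.222 (0.0796 to 0.502) once peaks above a q of 0.05 were left out. ZNF-number genes on other chromosomes had 4.17 Flag summits per Mb (3.17 to 5.38), a ratio of 0.499 (0.368 to 0.668) to other chromosome 19 genes. Their interval overlapped that of the members. With the comparison limited to other genes that lie within the clusters, the Flag ratio of the members was 0.683 (0.396 to 1.19), so that the interval then included equality. All protein-coding genes had 0.716 VCP and 2.80 Flag summits per Mb. Both values lie below those of the members. End windows made up 0.958 of 7.49 Mb at members, against 72.3 of 1293 Mb for all genes. Whether this accounts for the higher densities of the members was not tested. Ends are the denser part, and at ends alone the Flag density of the members was below that of all genes. For VCP it was above, at 6.26 per Mb (2.30 to 13.6) against 5.47. In bodies the VCP density was 1.23 per Mb for members (0.529 to 2.41), against 0.434 for all genes (0.398 to 0.473).

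Ends and bodies were also counted apart. Within 1 kb of an end members had 21.9 Flag summits per Mb (13.6 to 33.5), against 33.7 (28.3 to 39.8) for other chromosome 19 genes. In bodies they had 1.99 (1.06 to 3.41), against 3.69 (2.93 to 4.58). ZNF-number genes elsewhere had 33.6 at ends and 1.83 in bodies, and all protein-coding genes had 28.1 at ends (26.8 to 29.3) and 1.31 in bodies. For VCP, bodies of members had 1.23 summits per Mb (0.529 to 2.41), against 0.585 (0.311 to 1.00) for other chromosome 19 genes, a ratio of 2.10 (0.753 to 5.46) resting on 8 and 13 summits. Taking every summit in the cluster spans whether or not it was at a member, the clusters had 1.53 VCP summits per Mb (0.999 to 2.24), against 1.18 (0.863 to 1.58) in the rest of the chromosome without its central gap. The Flag density was 3.94 per Mb (3.05 to 5.00) in the clusters, against 6.65 (5.86 to 7.52) in the rest. The intervals of the clusters and the rest did not overlap for Flag and overlapped for VCP.

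Promoter sequence, which the choice of members did not use, was read next. A window of 300 bases, 250 before and 50 after the start, was read for each gene with a strand. The letters CCGGAAG, the core bound by ETS factors, were found on either strand in 97 of 216 member windows (44.9%), against 13.0% of 969 other chromosome 19 windows, 33.2% of 214 windows of ZNF-number genes elsewhere and 14.2% of all 15842 windows. ZNF548 and ZNF549 above hold this match. GGGCGG, the letters of SP and KLF factors, was found in 67.1% of member windows, against 65.7% of other chromosome 19 windows and 58.3% of all windows. The NRF1 letters (GCGC and TGCGC around any base) were found in 12.5% of member windows, against 10.4% of other chromosome 19 windows, 13.6% of ZNF-number windows elsewhere and 8.58% of all windows. AAGATGGCG of YY1 was found in 3.70% of member windows, against 3.92% of other chromosome 19 windows and 2.69% of all windows, and the Kaiso letters (TCTC followed by GCGAGA) in 0.926% of member windows, against 0.206% of other chromosome 19 windows and 0.669% of all windows. ZNF808 above shows GGGCGG on the opposite strand, as CCGCCC, at 5 places.

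A further set of letters, ACTAC and CCCAG with any 4 bases between them, was searched after it had been noticed in the promoters of marked members. It resembles the core of the motif known for ZNF143, an activator at promoters. It was found in 46 of 216 member windows (21.3%), against 2.37% of other chromosome 19 windows, 9.81% of ZNF-number windows elsewhere and 2.34% of all windows. ZNF837 and ZNF549 above hold it. Members are paralogs, so matches in neighbours may be copies of one another and are not independent. A match is a run of letters and not a binding site.

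The same letters were counted in members with and without a Flag summit at the start, and the differences were not tested. CCGGAAG was found in 9 of 19 windows with a summit (47.4%), against 88 of 197 without (44.7%). ACTAC and CCCAG at that spacing were found in 4 of 19 (21.1%), against 42 of 197 (21.3%). GGGCGG was found in 14 of 19 (73.7%), against 131 of 197 (66.5%). The median GC content was 62.7% in the 19 windows, against 59.3% in the 197, and 60.0% in all member windows, against 64.0% in those of other chromosome 19 genes.

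**Figure D4:**
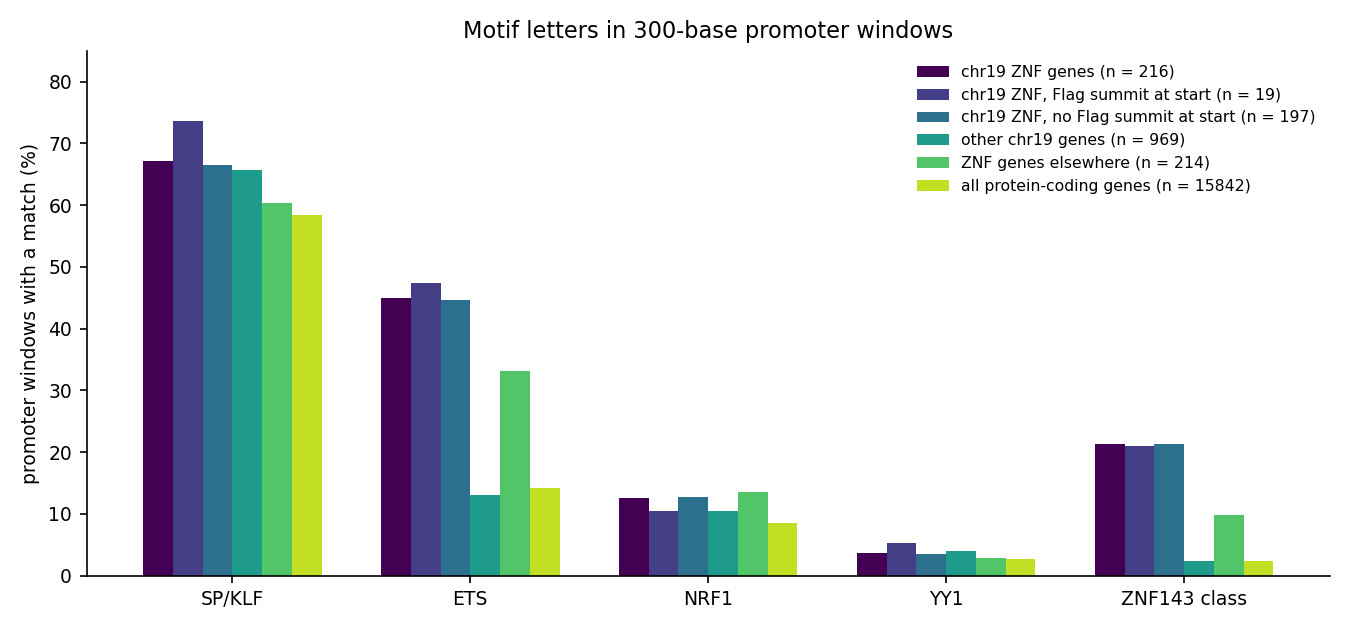
Percent of 300-base promoter windows holding each of 5 motifs on either strand, for members, members with and without a Flag summit at the start, and 3 comparison sets of genes. The ETS and ZNF143 class letters were found in 44.9% and 21.3% of member windows, against 14.2% and 2.34% of all windows.

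Repression machinery of KRAB zinc finger proteins and of zinc finger gene chromatin was looked up as a list of 20 genes. In the VCP list 0 of the 20 had a summit at an end or in the body, which allows a share of up to 15%, against 4.63% of all genes with either. In the Flag list 6 had a summit at an end (30%), against 11.7% of all genes, and 2 in the body (10%), against 6.75%. The 20 genes were chosen with earlier results of these data known. Their shares rest on few genes, and the differences were not tested. MORC2, an ATPase that works with the HUSH silencing complex, had 16 reads, a -log10 q of 5.47 and a fold enrichment of 5.97. TRIM28 had a fold enrichment of 4.21 (11 reads), CBX3, which encodes an HP1 protein, 3.98 (12 reads) and SETDB1 3.86 (10 reads). The other HP1 genes had 3.17 at CBX1 and, at a pair of summits, 3.16 and 3.86 at CBX5. UHRF1, a factor for maintenance of DNA methylation, had a body summit with a fold enrichment of 5.73, and CHD4, a remodeler, one of 3.03. The peaks at SETDB1, CBX1, CBX5 and CHD4 had a q above 0.05. ZNF274, the member of the list that is itself a zinc finger gene of chromosome 19, had no listed peak. Without a peak in either list were also ATF7IP, ATRX, DAXX, MPHOSPH8, TASOR, PPHLN1, SUV39H1, SUV39H2, DNMT1, HDAC1 and HDAC2.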

How the data were processed

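Chromatin of HCT116 cells was precipitated with antibodies to VCP and to Flag, 1 library each. The submitters' processing notes name MACS2 2.1.0, Bowtie 1.1.2, Trimmomatic 0.33 and bcl2fastq 2.17, with hg38 as build. Their settings, and the treatment of reads with several alignments, are not stated in the sources at hand. The deposited peak lists hold, per peak, a fold enrichment (the authors' ratio of reads over local background at the summit), the authors' -log10 p and -log10 q, and a deposited score that equals 10 times -log10 p rounded down and was not used.

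Here, gene spans came from RefSeq (GRCh38.p14; 58961 of 59792 rows kept) and strands from RefSeq promoter records, matched by gene ID. A summit was assigned to every protein-coding gene whose end lay within 1 kb or whose body held it. Read-through symbols (3) were left out of the members. The arms were split at the widest stretch without genes (3.50 Mb). Reads at each summit were recovered from fold enrichment and p with a pseudocount of 1 read, and fitted within 0.001 for all 1816 VCP and 5719 Flag peaks. The lowest background was 1.74 and 1.85 reads, and sequencing depth itself is not known.

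Shares have exact binomial (Clopper-Pearson) 95% intervals, densities and reads exact Poisson ones, and ratios of densities exact conditional ones. A count of 0 was taken to allow up to 3 counts, a tighter limit than the exact binomial interval. The exact interval reaches 1.69% for 0 of 216 in place of 1.39%, and 9.03% for 0 of 39 in place of 7.69%. No test was run. Members, lists and motifs were chosen with earlier results of these data known. Named were all members with a VCP summit, those in both lists, and in each list the 10 members of highest -log10 q. Also named were the member with the highest Flag -log10 q in each cluster and the genes of the repression list. ZNF480, ZNF766, ZNF865 and the other members given by place were named after their values were seen. Assignment and read recovery were checked on simulated data. Python 3.11.15, numpy 2.4.6, pandas 2.3.3, scipy 1.17.1 and matplotlib 3.10.9 were used.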

Additional observations from a re-analysis of the deposited data

How the results depend on the processing

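No paired analysis was possible because each antibody had 1 library. Of 61 values recomputed under alternatives, 46 stayed within the interval of the reported value or within 1.5 times the reported count. The other 15 follow, and the cause was not tested where it is not the smaller number of peaks or the size of the window. With q of at most 0.05 the share of members with a summit at an end was 0.407% for VCP and 1.63% for Flag, the share with a body summit 0% and 0.813%, and the density ratio to other chromosome 19 genes 3.52 for VCP (1 summit in each set) and 0.222 for Flag. With a fold enrichment of at least 4 the Flag share was 0.813% at ends, the body share 0% for VCP and 0.813% for Flag, and the Flag density ratio 0.190. A gap of 2 Mb gave 6 clusters in place of 10. With summits within 200 bp of each other counted as shared, 1 VCP peak at a member was shared in place of 2. At the 3′ end the Flag count was 1 with a window of 500 bp and 5 with 3 kb, and the VCP count 1 with 3 kb in place of 0. Peaks at members rested on 8 to 15 reads. The use of any listed start and the search for ACTAC and CCCAG were added after the data were seen.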

Other observations

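Of 55 chromosome 19 loci with a ZNF or ZFP number that are not protein-coding (pseudogenes and non-coding transcripts), 0 had a VCP summit, which allows a share of up to 5.45%, against 4.63% of all protein-coding genes. In the Flag list 7 of them had a summit at an end or inside (12.7%), against 17.5% of all protein-coding genes. All but 1 of these 7 summits were also assigned to a protein-coding gene. The remaining summit was at the transcribed pseudogene ZNF56P, with a fold enrichment of 3.16 and 8 reads.

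Among 16 zinc finger genes of chromosome 19 with other symbols (ZFP, ZSCAN, ZKSCAN, ZIM, ZIK1 and PEG3), a VCP summit lay at an end of 0 and in the body of 1 (6.25%), against 2.34% and 2.35% of all protein-coding genes. A Flag summit lay at an end of 2 (12.5%) and in the body of 1 (6.25%), against 11.7% and 6.75%.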
